A study of Mus musculus with 96 samples.

Results

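Txnip and 8 genes around it (Arrdc1, Arrdc3, Arrdc4, Mlx, Mlxip, Txn1, Slc2a1 and Slc2a3) were followed in single EL4 cells, out of 24057 genes listed. The genes were taken by symbol. Txnip was included because its expression was lower in both CTCF-KD cultures, so its own values are given as a description without a test, and the other 8 genes were included as its relatives, partners and transport targets. EL4 is a mouse T-lymphoma line of C57BL/6 origin. The cells were infected with retroviral particles carrying an shRNA against luciferase (shLuc, called WT) or against Ctcf (shCTCF, called CTCF-KD), so both groups carry an shRNA vector. The Fluidigm C1 system was used for capture, and the 4 cultures gave 24 sequenced cells each. WT1 and CTCFKD1 belong to experiment 1, and WT2 and CTCFKD2 to experiment 2. Of 96 cells, 95 with at least 3000 detected genes were kept, 47 WT and 48 CTCF-KD.

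Txnip encodes an alpha-arrestin that binds thioredoxin and promotes the internalization of glucose transporters. Its transcription is driven by MondoA (Mlxip) together with Mlx, a pair of basic helix-loop-helix factors that respond to glucose 6-phosphate and bind E-box-like carbohydrate response elements, and Arrdc4 is a close relative under the same control. The other alpha-arrestins, Arrdc1 and Arrdc3, act as adaptors for Nedd4-family ubiquitin ligases at membranes. T lymphocytes and lymphoma cells take up glucose mainly through Glut1 (Slc2a1) and Glut3 (Slc2a3).

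The promoter of Txnip is shown because the set was built around Txnip, and that of Arrdc4 as a relative with the same known regulators. RefSeq windows on GRCm38.p6 were found for 8 of the 9 genes, and the 250 bases before each start were searched on both strands. In the Txnip sequence (chr3:96557707-96557956, plus strand) and in that of Arrdc4 (chr7:68749239-68749488, minus strand), capitals mark CACGTG or the CACG pairs of CACGNNNNNNNCACG.
Txnip: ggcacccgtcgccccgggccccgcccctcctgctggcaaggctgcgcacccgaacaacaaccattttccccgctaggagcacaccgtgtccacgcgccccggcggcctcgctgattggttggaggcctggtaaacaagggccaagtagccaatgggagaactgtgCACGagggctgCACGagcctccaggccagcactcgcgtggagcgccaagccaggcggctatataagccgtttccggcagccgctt
Arrdc4: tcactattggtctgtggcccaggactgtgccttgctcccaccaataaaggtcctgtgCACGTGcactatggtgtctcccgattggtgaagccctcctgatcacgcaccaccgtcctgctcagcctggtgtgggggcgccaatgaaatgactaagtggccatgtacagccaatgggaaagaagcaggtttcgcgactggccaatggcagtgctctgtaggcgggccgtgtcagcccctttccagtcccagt
The Txnip window held 1 CACGNNNNNNNCACG match, which began 85 bases before the start, and no CACGTG. This tandem spacing was present in 168 of 32851 windows of the same length (0.511%). CACGTG was present in 6.02% of the windows, and among the 8 genes only Arrdc4 (193 bases before the start) and Mlx (40 bases before the start) held it. CCAAT, in either orientation, was present in 33.8% of all windows. It matched 2 times in the Txnip window, at 137 and 102 bases before the start, and 6 times in that of Arrdc4. These matches describe the sequence only.

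Recovered reads per cell, the whole reads behind the deposited TPM values, ranged from 41591 to 405404, and CTCFKD2 was the shallowest culture (3232422 reads, against 5493040 to 6192121 in the others). Median numbers of detected genes were 4771 in WT1 and 4635 in WT2 but 6172.5 in CTCFKD1 and 5656 in CTCFKD2. T-cell markers were found, with Cd3e, Cd3d and Cd3g in 94, 95 and 94 of the 95 cells. Thy1, Lck, Zap70 and Ptprc were in 91 to 95 cells, but Cd2 was in 79, Cd5 in 67 and Cd247 in 17. The summed mean TPM of 10 T-cell markers was 8573 and 8814 in the WT cultures and 6391 and 6626 in the CTCF-KD cultures. Of the 10, 3 had both CTCF-KD means below both WT means, against 16.9% of all 11980 genes tested. The part of the difference in summed markers in the results that follow was not tested. Cd79b, Ms4a1, Pax5, Lyz2, Adgre1, Hbb-bs, Dcn and Pdgfra were at 0 in all 95 cells. Summed TPM of the B-cell, myeloid, erythroid and fibroblast lists stayed between 0 and 52.1 in all cultures. Ctcf itself had a mean of 60.3 and 37.1 TPM in WT1 and WT2, 15.96 in CTCFKD1 and 44.9 in the culture labelled CTCFKD2. Within the single-cell values, directions given for experiment 2 therefore rest on the label of that culture. The study checked knockdown by RT-qPCR and Western blot before single-cell sequencing, and neither these data nor CTCF protein were analysed here. Each culture was run on its own circuit, so culture and circuit cannot be told apart, and with 2 cultures per condition an exact permutation test cannot give a p below 0.333.

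Txnip is at 96557957 to 96561883 of chromosome 3, plus strand. The mean was 286 TPM (SD 259.9 over 24 cells) in WT1 and 308 TPM (SD 226, 23 cells) in WT2. In CTCF-KD cells it was 41.5 TPM (SD 59.8, 24 cells) in CTCFKD1 and 81.9 TPM (SD 108, 24 cells) in CTCFKD2. From the highest to the lowest mean the order was WT2, WT1, CTCFKD2 and CTCFKD1. The 2 WT means were closer to each other than the 2 CTCF-KD means. Both CTCF-KD means were below both WT means. WT1 was 6.89-fold above CTCFKD1, and WT2 was 3.76-fold above CTCFKD2. On the log2(mean TPM + 1) scale, which understates changes at low values, the difference CTCF-KD minus WT was -2.75 in experiment 1, -1.90 in experiment 2 and -2.33 over both. Between replicates on that scale, WT1 minus WT2 was -0.11 and CTCFKD1 minus CTCFKD2 was -0.96. In RPM, recovered reads scaled to the total of a culture, with exact 95% Poisson intervals, which cover counting error only, Txnip was at 443 (426 to 460) in WT1, 389 (373 to 406) in WT2, 65.1 (58.6 to 72.1) in CTCFKD1 and 119 (107 to 131) in CTCFKD2. These values rested on 2742, 2139, 365 and 383 reads.

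In both experiments the cells with the highest Txnip values were WT cells. In WT1 single cells ranged from 7.52 to 1137 TPM with a median of 241. In WT2 they ranged from 0 to 644 TPM with a median of 277. In CTCFKD1 the median was 10.5 TPM and the highest cell 180 TPM. In CTCFKD2 the median was 41.3 TPM and the highest cell 362 TPM. All 24 CTCFKD1 cells lay below the WT1 median and 22 of 24 CTCFKD2 cells below the WT2 median. In the opposite direction, 14 of 24 WT1 cells exceeded the highest CTCFKD1 cell and 11 of 23 WT2 cells the highest CTCFKD2 cell. The upper parts of the distributions separated, while the lower parts overlapped in both experiments.

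Both the number of cells with Txnip reads and the level in those cells were lower. Reads were detected in 24 of 24 WT1 cells and 21 of 23 WT2 cells, against 18 of 24 CTCFKD1 cells and 16 of 24 CTCFKD2 cells. After every cell was thinned to 80000 reads, which left out 1 CTCFKD2 cell, the expected shares were 98.5% and 88.1% in WT and 62.2% and 65.3% in CTCF-KD. Among cells with a read, the mean was 286 TPM (WT1) and 338 TPM (WT2), against 55.4 TPM (CTCFKD1) and 123 TPM (CTCFKD2). Within a culture, Txnip had a Spearman rho between -0.11 and 0.16 with the number of genes detected and between -0.24 and 0.31 with the reads of a cell.

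**Figure D1:**
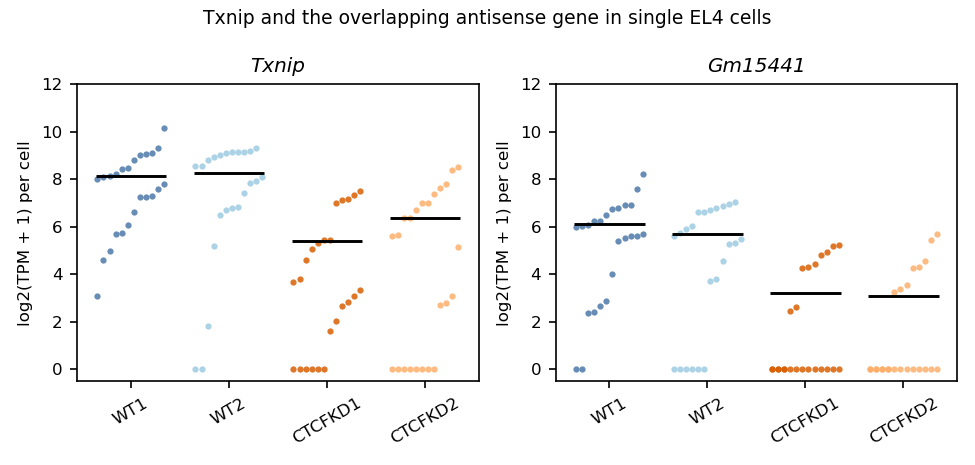
Txnip and Gm15441 in single cells, as log2(TPM + 1), by culture (x axis). Each point is a cell and each bar is log2(mean TPM + 1) of the culture. For both genes the bars of CTCFKD1 and CTCFKD2 lie below those of WT1 and WT2, and the CTCF-KD cultures hold more cells at 0.

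Gm15441 is an antisense gene on the minus strand of chromosome 3 (96555765 to 96566801) that spans Txnip. Its mean was 68.98 TPM in WT1 and 51.2 TPM in WT2, against 8.22 TPM in CTCFKD1 and 7.59 TPM in CTCFKD2. Both CTCF-KD means were below both WT means, and the log2 change was -2.76 (standard error 0.61, limma adjusted p = 0.585), -2.92 in experiment 1 and -2.61 in experiment 2. Reads were found in 22 of 24 WT1 cells, 17 of 23 WT2 cells, 9 of 24 CTCFKD1 cells and 8 of 24 CTCFKD2 cells. The setting of strand in counting is not given in the sources used here, and without strand, reads in bases that both genes share cannot be told apart. In the GENCODE M21 models the genes share 606 exonic bases, 19.4% of those of Txnip and 36.2% of those of Gm15441. Of the reads assigned to either gene, Gm15441 took 12.9% in WT1 (exact 95% binomial interval 11.8% to 14.1%), 8.75% in WT2 (7.63% to 9.96%), 10.5% in CTCFKD1 (7.73% to 13.9%) and 5.43% in CTCFKD2 (3.44% to 8.11%). The share was not the same in the 4 cultures, and in each experiment the CTCF-KD value was below the WT value, with overlapping intervals in both experiments. Whether reads assigned to Gm15441 came from Txnip transcripts was not tested.

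Among the relatives of Txnip, Arrdc1 was the only other alpha-arrestin found in most cells. Arrdc1 lies on chromosome 2 (24925352 to 24935252, minus strand). Its mean was 282 TPM in WT1, 219 TPM in WT2, 196 TPM in CTCFKD1 and 253 TPM in CTCFKD2. The cultures overlapped, and the log2 change was -0.16 (standard error 0.33, 95% interval -0.96 to 0.65, limma adjusted p = 0.941), with -0.52 in experiment 1 and 0.21 in experiment 2. The spread over cells was wide, with an SD of 414 TPM in WT1, 327 TPM in WT2, 153 TPM in CTCFKD1 and 334 TPM in CTCFKD2. The medians were ordered the other way in experiment 1, with 28.8 and 7.495 TPM in WT1 and WT2 and 167 and 153 TPM in CTCFKD1 and CTCFKD2. Arrdc1 reads were present in 19 of 24 WT1 cells and 12 of 23 WT2 cells, and in 22 of 24 and 19 of 24 CTCF-KD cells. At 80000 reads per cell the shares were 68.9% and 47.1% in WT and 86.2% and 78.1% in CTCF-KD (exact permutation test, two-sided, p = 0.333, the smallest 2 against 2 cultures allow). In WT cells with a read the mean was 356 and 419 TPM, against 214 and 320 TPM in CTCF-KD cells with a read. At 80000 reads the share of cells with a read was thus higher in both CTCF-KD cultures than in either WT culture, as for 46.4% of all genes tested. The mean TPM in cells with a read was lower.

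Arrdc3, a brake on beta-adrenergic receptor signalling and a tumour suppressor in other tissues, lies on chromosome 13 (80883384 to 80896042, plus strand) and was sparse. Its mean was 4.43 TPM in WT1, 0 in WT2, 10.1 TPM in CTCFKD1 and 6.69 TPM in CTCFKD2. It was found in 3 of 24 WT1 cells, 0 of 23 WT2 cells, 7 of 24 CTCFKD1 cells and 6 of 24 CTCFKD2 cells, from 52, 0, 130 and 39 reads. Both CTCF-KD means were above both WT means, but in CTCFKD1 3 cells held 91.4% of the summed TPM. The fitted log2 change was 1.98 (standard error 1.07, 95% interval -0.59 to 4.56, limma adjusted p = 0.739). Since WT2 is at 0, this value depends on the pseudocount, and it was 3.62 with 0.1 and 0.61 with 10 in place of 1, and 0.84 with log2(TPM + 1) averaged over cells. In RPM, CTCFKD1 was 2.76 times WT1 in experiment 1. In experiment 2 WT2 had 0 reads and CTCFKD2 was at 12.1 RPM (8.58 to 16.5, counting error only), and no fold is given.

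Arrdc4, on chromosome 7 (68736995 to 68749241, minus strand), had 0 reads in all 95 cells, which allows a share of up to 3.16% of cells with a read, for counting error only. The other sparse relatives, Arrdc2 and Arrdc5, had a value above 0 in 1 WT1 cell each (43.4 and 9.09 TPM). Of the alpha-arrestins, Txnip and Arrdc1 were thus the ones with means above 40 TPM in every culture.

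The culture means of the glucose-sensing factors upstream of Txnip overlapped between the conditions. Mlx, the shared dimer partner (chromosome 11, 101087277 to 101092207, plus strand), had a mean of 166 TPM in WT1, 125 TPM in WT2, 129 TPM in CTCFKD1 and 115 TPM in CTCFKD2. Its cultures overlapped, with a log2 change of -0.24 (standard error 0.36, 95% interval -1.10 to 0.61, limma adjusted p = 0.904). Mlx reads were found in 19 of 24 and 16 of 23 WT cells and in 22 of 24 and 19 of 24 CTCF-KD cells. At 80000 reads the shares were 69.2% and 60.02% in WT and 85.8% and 78.4% in CTCF-KD.

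Mlxip, which encodes MondoA (chromosome 5, 123394798 to 123457932, plus strand), had a mean of 11.8 TPM in WT1, 6.88 TPM in WT2, 9.10 TPM in CTCFKD1 and 12.1 TPM in CTCFKD2. The log2 change was 0.19 (standard error 0.83, 95% interval -1.80 to 2.19, limma adjusted p = 0.976), -0.35 in experiment 1 and 0.73 in experiment 2. Reads were present in 10 of 24, 11 of 23, 9 of 24 and 9 of 24 cells in WT1, WT2, CTCFKD1 and CTCFKD2. In CTCFKD1 and CTCFKD2 the 3 highest cells held 90.1% and 83.2% of the summed TPM, against 62.6% and 69.6% in WT1 and WT2. Mlxipl, the related ChREBP, had a value above 0 in 1 cell of WT1 and in 1 cell of CTCFKD1.

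Txn1, thioredoxin, the redox protein that Txnip binds (chromosome 4, 57943373 to 57956411, minus strand), was the steadiest member. Its mean was 676 TPM in WT1, 627 TPM in WT2, 728 TPM in CTCFKD1 and 692 TPM in CTCFKD2. Both CTCF-KD mean TPM values were above both WT values by a small amount. The log2 change was 0.12 (standard error 0.28, 95% interval -0.54 to 0.79, limma adjusted p = 0.943), 0.11 in experiment 1 and 0.14 in experiment 2. Txn1 was detected in every cell except 1 cell of CTCFKD2, which held 41591 reads. In RPM the order did not hold, with 399 in WT1 and 306 in WT2 against 431 in CTCFKD1 and 363 in CTCFKD2. In the mean over cells of log2(TPM + 1), which includes the cell at 0, CTCFKD2 was lowest (8.99, against 9.10 in WT2).

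In mean TPM, the glucose transporters were lower in both CTCF-KD cultures without passing the test. Slc2a3, encoding the high-affinity transporter Glut3 (chromosome 6, 122727809 to 122801640, minus strand), had a mean of 377 TPM (SD 328) in WT1 and 449 TPM (SD 389) in WT2. It had 215 TPM (SD 124) in CTCFKD1 and 277 TPM (SD 174) in CTCFKD2. The CTCF-KD mean was 57.2% of WT in experiment 1 and 61.7% in experiment 2, and the log2 change was -0.75 (standard error 0.32, 95% interval -1.51 to 0.01, limma adjusted p = 0.656, unadjusted p = 0.0522). With the experiment as a replicate block, which pairs WT1 with CTCFKD1 and WT2 with CTCFKD2, the adjusted p was 0.270. With log2(TPM + 1) averaged over cells, the log2 change was -0.38 (limma adjusted p = 0.715). Slc2a3 reads were present in all 95 cells, so the difference lay in the amount per cell. The highest single cells reached 1269 and 1336 TPM in WT and 437 and 536 TPM in CTCF-KD, and 9 of 24 WT1 cells and 7 of 23 WT2 cells exceeded the highest CTCF-KD cell of their experiment. The medians were 326 and 325 TPM in WT and 184 and 275 TPM in CTCF-KD.

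Slc2a1, encoding Glut1 (chromosome 4, 119108711 to 119137983, plus strand), had a mean of 446 TPM in WT1, 287 TPM in WT2, 271 TPM in CTCFKD1 and 218 TPM in CTCFKD2. WT2 and CTCFKD1 were close, and both CTCF-KD mean TPM values lay below both WT values. The log2 change was -0.56 (standard error 0.35, 95% interval -1.41 to 0.29, limma adjusted p = 0.775), -0.72 in experiment 1 and -0.40 in experiment 2. Slc2a1 was present in 23 of 24 WT1 cells, 20 of 23 WT2 cells, 23 of 24 CTCFKD1 cells and 20 of 24 CTCFKD2 cells. In RPM, Slc2a1 was higher in CTCFKD1 than in WT2, at 376 (360 to 392) against 349 (334 to 365), counting error only. The mean over cells of log2(TPM + 1) was also higher in CTCFKD1 (6.84) than in WT2 (6.56).

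**Figure D2:**
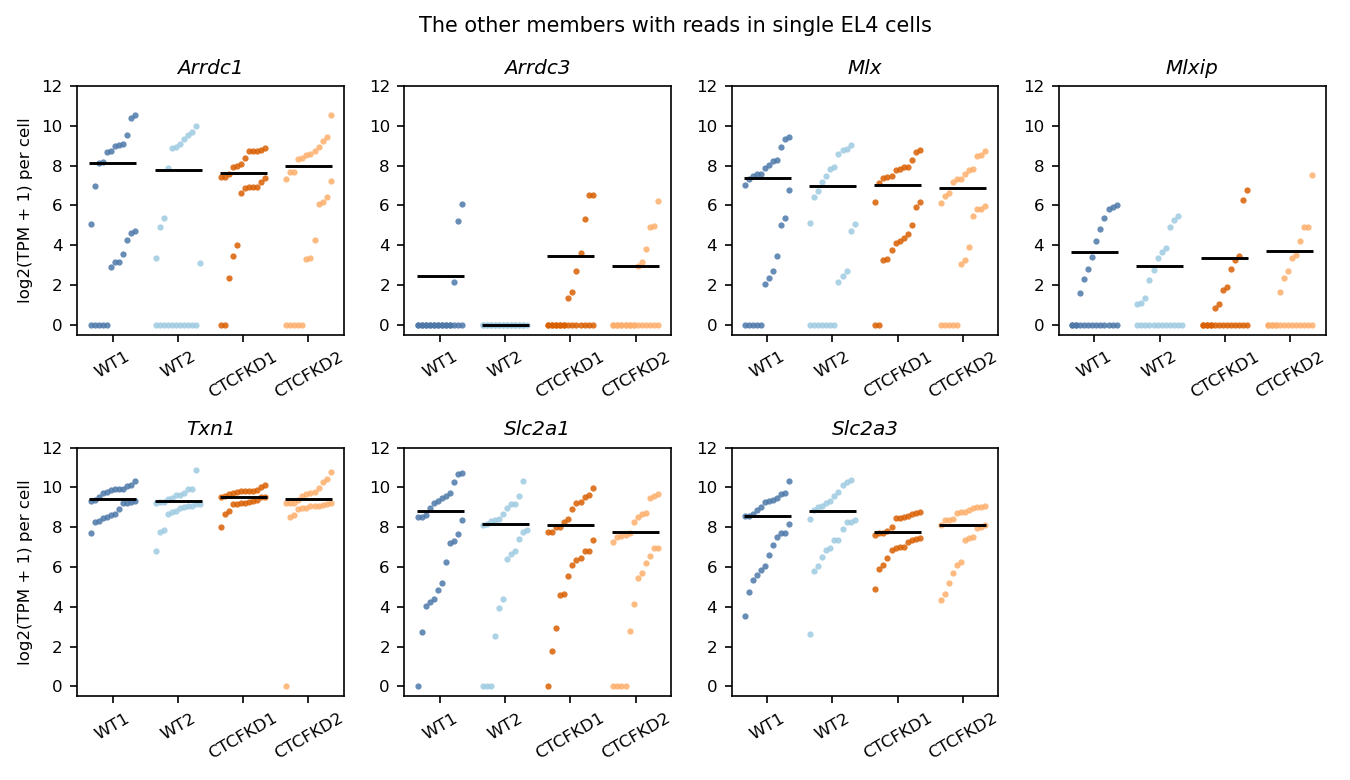
Single-cell values of 7 members, as log2(TPM + 1), by culture (x axis). Points are cells and bars are log2(mean TPM + 1) of a culture. Txn1 and Slc2a3 are high in nearly every cell, Arrdc1, Mlx and Mlxip divide between cells at 0 and cells with reads, and Arrdc3 is at 0 in every WT2 cell.

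The filter on low values was passed by 7 members other than Txnip. In mean TPM, 2 of them (Slc2a1 and Slc2a3) had both CTCF-KD cultures below both WT cultures, against 16.9% of all 11980 genes tested. Arrdc3 and Txn1, 2 of the 7, had both above, against 19.9% of all genes, and 3 (Arrdc1, Mlx and Mlxip) overlapped. The orders of Slc2a1 and Txn1 did not hold in RPM or in the mean over cells of log2(TPM + 1). None of the 7 was called by limma at an adjusted p of 0.05, lower or higher, where 0% of all genes were called, the smallest adjusted p over all genes being 0.585. None of the 7 reached an unadjusted p of 0.05, which 2.82% of all genes did with lower and 4.79% with higher expression in CTCF-KD. With log2(TPM + 1) averaged over cells, limma called 0.0167% of all genes lower and 0.367% higher, none of the 7 among them. The median log2 change was -0.16 for the 7 and 0.04 over all genes tested.

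**Figure D3:**
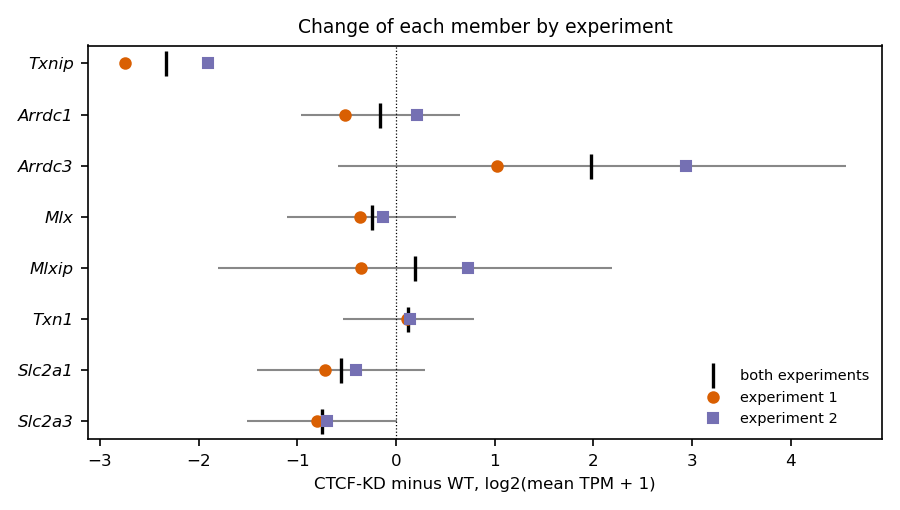
Difference CTCF-KD minus WT for each member, in log2(mean TPM + 1). Circles are experiment 1, squares experiment 2 and vertical bars both, with grey lines for the 95% limma interval (none for Txnip). Txnip is at -2.75 and -1.90, and all 7 intervals of the other members include 0.

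As shares of cells with a read, 1 of the 7 other members (Arrdc3) was higher in each CTCF-KD culture than in either WT culture in the values as deposited, against 36.2% of all genes. Mlxip was the 1 member below, against 5.96% of all genes. After thinning to 80000 reads, 5 members were above (Arrdc1, Arrdc3, Mlx, Txn1 and Slc2a3), against 46.4% of all genes, and Mlxip was below, against 6.32%. For Txn1 and Slc2a3 the thinned shares lay between 98.3% and 100% in every culture. The number of genes per cell was higher in both CTCF-KD cultures, and its part in these shares was not tested.

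**Figure D4:**
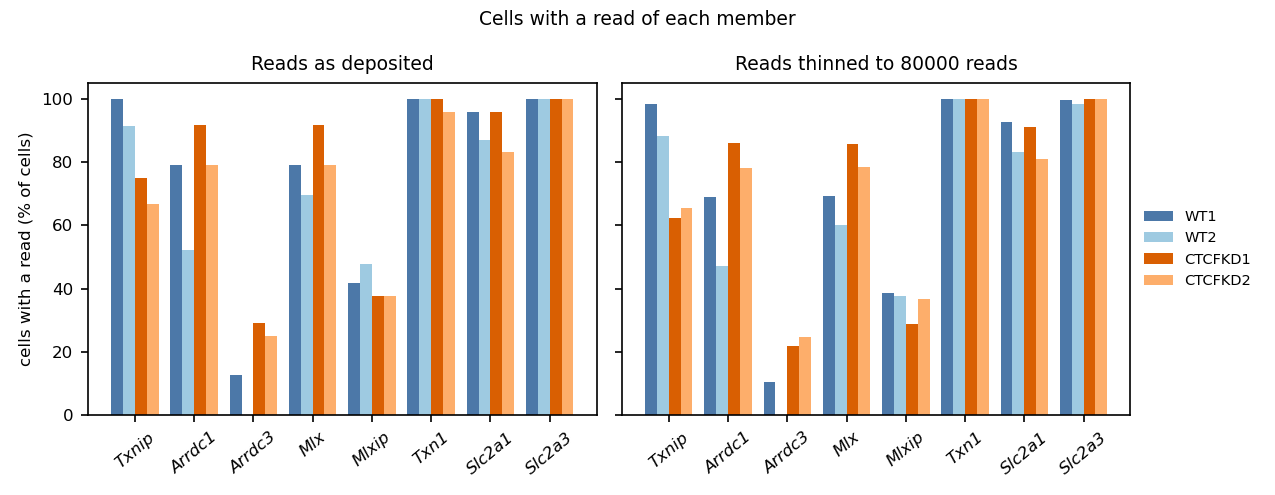
Percent of cells with at least 1 read of each member in each culture, from the reads as deposited (left) and as the share expected at 80000 reads per cell (right). At equal depth Txnip is at 98.5% and 88.1% in WT and at 62.2% and 65.3% in CTCF-KD, while Arrdc1 and Mlx are higher in CTCF-KD.

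Cell-to-cell variation was expressed as the coefficient of variation (CV) of log2(TPM + 1) among all cells of one condition. Genes counted as increased or decreased if CTCF-KD minus WT was over 1 SD away from the average of 7843 genes. Txnip had a CV of 0.315 in WT and 0.785 in CTCF-KD and was called increased, as 7.68% of all genes were. By culture its CV was 0.228, 0.395, 0.755 and 0.812 in WT1, WT2, CTCFKD1 and CTCFKD2. Mlxip was also called increased, with 1.31 in WT and 1.58 in CTCF-KD. Of the others, none was called decreased (11.3% of all genes), and Slc2a3 had 0.225 in WT and 0.164 in CTCF-KD. The CV expected at the mean of Txnip was 0.298 in WT and 0.678 in CTCF-KD. After subtraction of the CV expected from the mean, the difference for Txnip was 0.0901. Only Mlxip was then called increased, as 8.59% of all genes were.

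Over the cells of a culture, the genes with the pattern most like Txnip were ranked by the mean of the 4 within-culture Spearman rho values, each over 23 or 24 cells, across 7822 genes. This is a description, since cells of a culture share a circuit and differ in depth. Gm15441 was first with 0.807 (0.892, 0.909, 0.586 and 0.839 in WT1, WT2, CTCFKD1 and CTCFKD2). It shares 606 exonic bases with Txnip, and the part of reads from shared bases in this rho was not tested. The next were Hccs (0.356), Plcxd2 (0.339), Fbxw5 (0.328), Kmt2a (0.327) and Wdr13 (0.326). Only genes with the same sign of rho in all 4 cultures were named. At the other end these were 2900060B14Rik (-0.36), Tnfrsf12a (-0.34), Ppp1r12c (-0.33) and Ccdc117 (-0.31). The middle 98% of genes lay between -0.24 and 0.24. Arrdc3 was too sparse to be ranked, and none of the other members stood outside that range, with Txn1 at 0.12, Slc2a3 at 0.11, Mlx at 0.096, Mlxip at 0.042, Arrdc1 at -0.059 and Slc2a1 at -0.19. For Slc2a1 the rho was -0.31 in WT1, -0.49 in WT2, 0.20 in CTCFKD1 and -0.17 in CTCFKD2.

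The genes around Txnip were grouped by role, with Txnip left out of every count. For each list the count with both CTCF-KD means below or above both WT means can be read against the 16.9% and 19.9% of all genes given above. No gene of any list was called by limma, and the adjusted p-values of all genes named here were 0.585 or higher.

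Of 8 other genes with an arrestin fold, 7 were tested, 2 were below, 1 was above and the median log2 change was 0.09. Arrb1, beta-arrestin 1, had 18.2 and 30.4 TPM in WT and 1.75 and 5.27 TPM in CTCF-KD (log2 change -2.57, standard error 0.90, unadjusted p = 0.0266 from limma). Arrb2, beta-arrestin 2, had 0.566 and 0 TPM in WT and 4.30 and 3.72 TPM in CTCF-KD (1.76 in experiment 1 and 2.24 in experiment 2, standard error 0.69, unadjusted p = 0.0245 from limma). The beta-arrestins, adaptors that switch off G-protein-coupled receptors, thus lay on opposite sides, Arrb2 with reads in only 13 cells.

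Of 18 other genes reported as targets of MondoA or ChREBP, 13 had a read and 12 were tested, with 5 below, 0 above and a median of -0.20. Scd1, the desaturase that makes monounsaturated fatty acids, had 106 and 80.99 TPM in WT and 13.8 and 34.9 TPM in CTCF-KD (log2 change -2.02, standard error 0.58, adjusted p = 0.585). Gpd1 was at the other end with 0.25, from reads in 4 cells. Hk2, hexokinase 2, had 721 and 845 TPM in WT and 661 and 830.4 TPM in CTCF-KD, and its cultures overlapped.

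Of 20 tested genes of the thioredoxin system, 2 were below, 4 above and the median was 0.12. Txnrd2, mitochondrial thioredoxin reductase, had the highest log2 change (1.17, standard error 1.49), with 47.7 and 0.902 TPM in WT1 and WT2 and with 18.7 and 22.7 TPM in CTCFKD1 and CTCFKD2. Txnrd3 had the lowest (-1.36), from reads in 3 cells. The 10 glutaredoxin and glutathione genes had 2 below, 4 above and a median of 0.06. Glrx5, an iron-sulfur cluster assembly protein, had 8.47 and 28.4 TPM in WT and 47.5 and 44.8 TPM in CTCF-KD (2.36 in experiment 1 and 0.64 in experiment 2, adjusted p = 0.696). Gclc, of glutathione synthesis, had 44.2 and 27.2 TPM in WT and 21.6 and 24.5 TPM in CTCF-KD (-0.58).

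Of 9 tested sugar transporter genes, the 2 below were Slc2a1 and Slc2a3, 3 were above, and the median was -0.37. Slc2a9, a urate and hexose transporter, had 0.513 and 7.75 TPM in WT and 10.96 and 18.2 TPM in CTCF-KD (log2 change 2.06, standard error 1.12). Slc2a4 had the lowest change (-1.33), from reads in 2 cells. Slc5a1, a sodium-glucose cotransporter, was at 0 in both WT cultures and had reads in 3 CTCF-KD cells, with means of 1.54 and 1.85 TPM. Its log2 change, which depends on the pseudocount with WT at 0, was 1.43 (standard error 0.53, unadjusted p = 0.0339 from limma).

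Of 7 tested genes for glucose phosphorylation and the first steps after it, 4 were below, 1 was above and the median was -0.51. Pfkfb3, which makes the activator of phosphofructokinase, had 11.9 and 6.09 TPM in WT and 4.14 and 1.08 TPM in CTCF-KD (log2 change -1.55, standard error 0.95, adjusted p = 0.772). Gpi1 had 4319 and 3214 TPM in WT and 2307 and 2403 TPM in CTCF-KD (-0.66, standard error 0.31, adjusted p = 0.680). G6pdx, the entry to the pentose phosphate pathway, was highest, with 126 and 152 TPM in WT and 191 and 157 TPM in CTCF-KD (0.32).

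Of 7 tested Nedd4-family ligases, partners of the alpha-arrestins, 3 were below, 0 above and the median was -0.31, from Smurf2 (-1.43) to Wwp2 (0.89). Smurf2 had 6.67 and 12.1 TPM in WT and 2.09 and 3.45 TPM in CTCF-KD. Of 10 AMPK and Lkb1 subunit genes, whose kinase phosphorylates Txnip, 3 were below, 1 above and the median was -0.13. Prkag2 was lowest, with 25.2 and 35.3 TPM in WT and 7.84 and 11.2 TPM in CTCF-KD (-1.57, standard error 0.69, adjusted p = 0.665), and Strada highest (1.67). The 9 retromer and Glut1 recycling genes had 1 below, 2 above and a median of 0.09, from Snx6 (-0.74) to Snx27 (0.61).

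Of 12 tested FoxO factors and their lymphocyte targets, 5 were below, 2 above and the median was -0.23. Pik3ip1, an inhibitor of PI3 kinase, had 88.8 and 54.6 TPM in WT and 23.1 and 9.34 TPM in CTCF-KD (log2 change -2.16, standard error 0.64, unadjusted p = 0.0135 from limma). Ccng2, cyclin G2, had 59.4 and 93.1 TPM in WT and 10.7 and 28.8 TPM in CTCF-KD (-2.02, standard error 0.64, unadjusted p = 0.0180 from limma). Ccr7, a homing receptor, was at 0 in both WT cultures and had reads in 5 CTCF-KD cells, with means of 5.38 and 20.7 TPM. Its log2 change, which depends on the pseudocount with WT at 0, was 3.56 (standard error 0.90, unadjusted p = 0.0063 from limma).

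**Figure D5:**
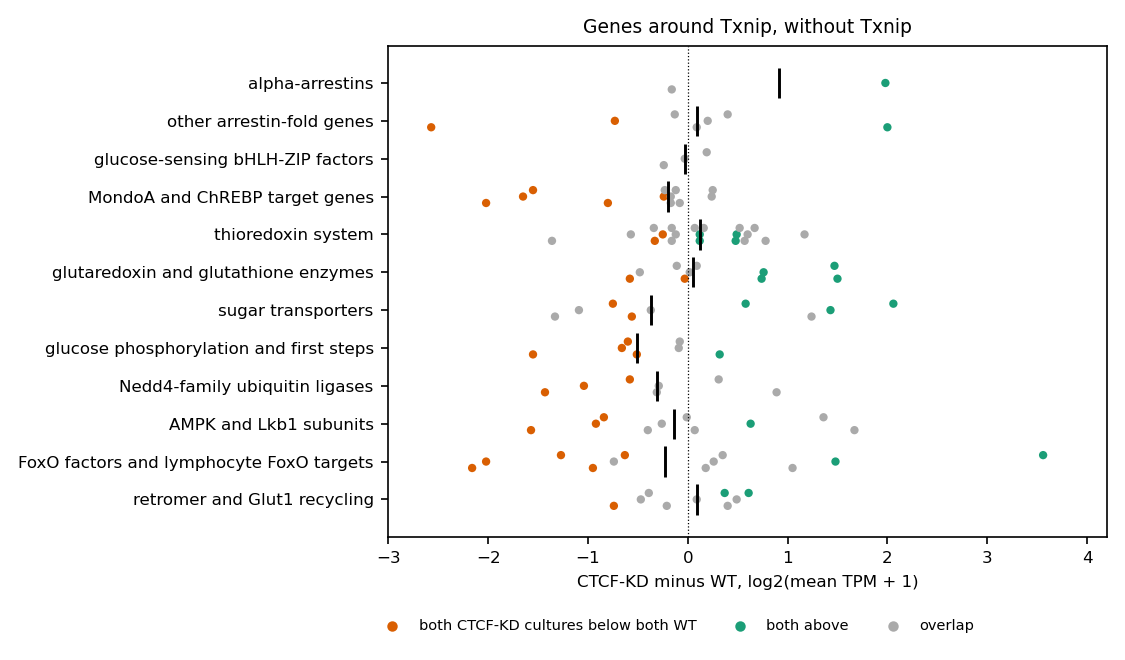
Differences CTCF-KD minus WT, in log2(mean TPM + 1), of the tested genes of each list without Txnip. Each point is a gene, coloured by whether its CTCF-KD means lay on one side of its WT means, and vertical bars are list medians. Medians of the plotted lists with 3 or more genes lie between -0.51 and 0.12.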

How the data were processed

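Single-cell cDNA libraries of EL4 cells were made on the Fluidigm C1 system. The authors aligned reads to GRCm38 with STAR, counted uniquely mapped reads per gene with HTSeq and deposited TPM, which is scaled by gene length and by the total of each cell. No molecular identifiers are described. Groups were taken from the sample titles. The 9 genes and all gene lists were chosen with earlier results of these data known.

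Cells with fewer than 3000 genes were left out (1 WT2 cell). Whole reads were recovered from TPM as the common step of each gene over cells, and all 504524 values above 0 lay within 0.001 of a whole number. The smallest step was taken as 1 read, which could not be checked for genes with a value in 1 cell. These reads served for depth, RPM, intervals and thinning. The culture was the replicate. Genes over 1 on the log2(TPM + 1) scale in 2 or more cells (11980) were tested on log2(mean TPM + 1), with a pseudocount of 1, by limma 3.58.1 (R 4.3.3) with a mean-variance trend and Benjamini-Hochberg adjustment. Scripts were tested on simulated data. P-values measure the spread between 2 cultures per condition. WT and CTCF-KD cultures of 1 number belong to one experiment according to the methods of the study, and deviations of WT1 and CTCFKD1 from their condition means had r = 0.275 over 7843 genes.

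Genes named were the 9 members, Ctcf, Gm15441 and genes by likeness to Txnip. The latter were the 6 highest and 4 lowest with the same sign of rho in all 4 cultures. In each list, the genes with the highest and lowest log2 change were named. Genes at an unadjusted p under 0.05 whose culture means did not overlap were named too. Hk2, Gpi1 and the sparse relatives were added after their values were seen. Promoter sequences are from RefSeq (GRCm38.p6) and gene coordinates from GENCODE M21 (GRCm38).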

Additional observations from a re-analysis of the deposited data

Results flagged for a closer look

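Arrdc1 and Mlxip each went in opposite directions in the 2 experiments. The log2 change of Arrdc1 was -0.52 in experiment 1 and 0.21 in experiment 2, and that of Mlxip was -0.35 and 0.73. With 1 culture per condition in an experiment, the difference between experiments was not tested.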

How the results depend on the processing

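Over 13 alternatives the log2 change of Txnip stayed between -3.48 and -1.85. It was -3.48 with the mean over cells of log2(TPM + 1), and between -2.81 (without CTCF-KD replicate 2) and -1.85 (without CTCF-KD replicate 1) when single cultures were left out. For the other members, 85 of 91 values kept their direction and 6 reversed. The side of the threshold is not informative here, because the main fit and nearly all alternatives called no gene. With log2(TPM + 1) averaged over cells, Arrdc1 turned to 1.54, Mlx to 0.64 and Mlxip to -0.32, and the median over all genes moved from 0.04 to 0.23. Without single cultures Arrdc1 ranged from -0.34 to 0.03 (0.03 without WT replicate 1 and 0.03 without CTCF-KD replicate 1), and Mlxip from -0.16 (without WT replicate 2) to 0.55. The cause was not tested. That scale called 2 genes lower and 44 higher with limma (0.0167% and 0.367% of all genes), where log2(mean TPM + 1) called 0 and 0, and 338 and 574 at an unadjusted p of 0.05. None of the 7 other members was called with log2(TPM + 1) averaged over cells, the only alternative that called any gene. With the replicate block 0 genes were called, 613 lower and 918 higher were at an unadjusted p of 0.05, and the adjusted p was 0.350 for Slc2a1 and 0.244 for Gm15441, whose range over all alternatives was 0.0564 to 0.729. The number of members with increased variation, 2 with Txnip, was 1 (Txnip) in experiment 2 alone, against 7.98% of all genes. It was 1 (Mlxip) after the CV expected from the mean was subtracted, against 8.59% of all genes. Leaving out WT2 took the change of Arrdc3 from 1.98 to 0.76, and leaving out WT1 took it to 3.20 and that of Slc2a1 from -0.56 to -0.24. Arrdc3 rested on 0 to 130 reads per culture, so a few cells set its level.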
